A study of Mus musculus with 12 samples.

Results

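SK-124 is an inhibitor of the salt-inducible kinases SIK2 and SIK3. Kidney genes for transporters of inorganic phosphate and for PDZ scaffolds were described in whole-kidney RNA-Seq of mice given this compound. They were chosen by name, as 9 of the 55401 genes in the deposited tables: the type II sodium-phosphate cotransporters *Slc34a1*, *Slc34a2* and *Slc34a3*, the type III cotransporters *Slc20a1* and *Slc20a2*, the PDZ scaffolds *Slc9a3r1*, *Slc9a3r2* and *Pdzk1*, and the phosphate exporter *Xpr1*. Each of the 9 passed the filter on low counts that left 14159 genes for testing. The series held 12 libraries, each from the whole kidney of a male C57BL6 mouse 8 weeks of age. Of these mice, 6 received 1 intraperitoneal injection of SK-124 at 40 mg/kg, and 6 received the 15% 2-hydroxypropyl-β-cyclodextrin vehicle alone. The interval between injection and tissue collection is not given for these libraries in the sources used here. All mice were of 1 strain and sex, and the tissue was not sorted, so that fewer cells of a type and less RNA per cell cannot be told apart in any value below.

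Proximal tubule cells reclaim most filtered phosphate through cotransporters in the brush border that couple phosphate to sodium. NPT2A, encoded by *Slc34a1*, and NPT2C, encoded by *Slc34a3*, are the brush-border forms of the kidney, whereas NPT2B, encoded by *Slc34a2*, is best known from intestine and lung; PIT1 and PIT2, encoded by *Slc20a1* and *Slc20a2*, are more widely expressed. NHERF1 (*Slc9a3r1*), NHERF2 (*Slc9a3r2*) and PDZK1 are scaffold proteins with PDZ domains, of which NHERF1 is the one best known to anchor NPT2A at the apical membrane. Parathyroid hormone (PTH) and FGF23 lower phosphate reabsorption mainly by withdrawing the cotransporter proteins from that membrane. XPR1 exports phosphate from cells. The libraries measure mRNA only, so that protein at the membrane was not assessed.

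Library depth was even, with 19350134 to 19771802 expected counts in vehicle mice and 19244227 to 19530313 in SK-124 mice. SK-124 mice 1 to 3 stood apart from the others in composition: their 10 most abundant genes took 44.4% to 46.8% of all counts, against 38.6% to 40.2% in SK-124 mice 4 to 6 and 39.9% to 43.2% in vehicle mice. Mitochondrially encoded genes took 29.4% to 32.4% in those 3 mice, 25.8% to 27.6% in SK-124 mice 4 to 6 and 27.7% to 29.9% in vehicle mice. Counts were scaled by TMM, which sets libraries by the bulk of their genes, and given as CPM, counts per scaled library size. With library totals or TPM, which RSEM sets per transcript length and library, in its place, the median over all genes moved on the log2 scale from -0.005 to -0.12 with library totals and to -0.14 with log2(TPM + 0.1), and results that depend on this choice are named below.

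Over all genes, edgeR's quasi-likelihood test, adjusted by Benjamini and Hochberg's method, called 3453 of 14159 genes, or 24.4%, at an adjusted p under 0.05, with 1536 higher (10.8%) and 1917 lower (13.5%) in SK-124 mice. Of the 9 phosphate genes, 4 were called, a share to be read against that 24.4%: *Slc34a2*, *Slc9a3r2* and *Slc9a3r1* were lower and *Slc20a2* was higher. The groups did not overlap in CPM for 3 of the 9, against 13.0% of all genes tested. The median log2 fold change of the 9 genes was -0.09, beside -0.005 for all genes tested. *Slc34a2* fell by 65.0%, and each of the other 8 differed by less than 25% in either direction.

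**Figure D1:**
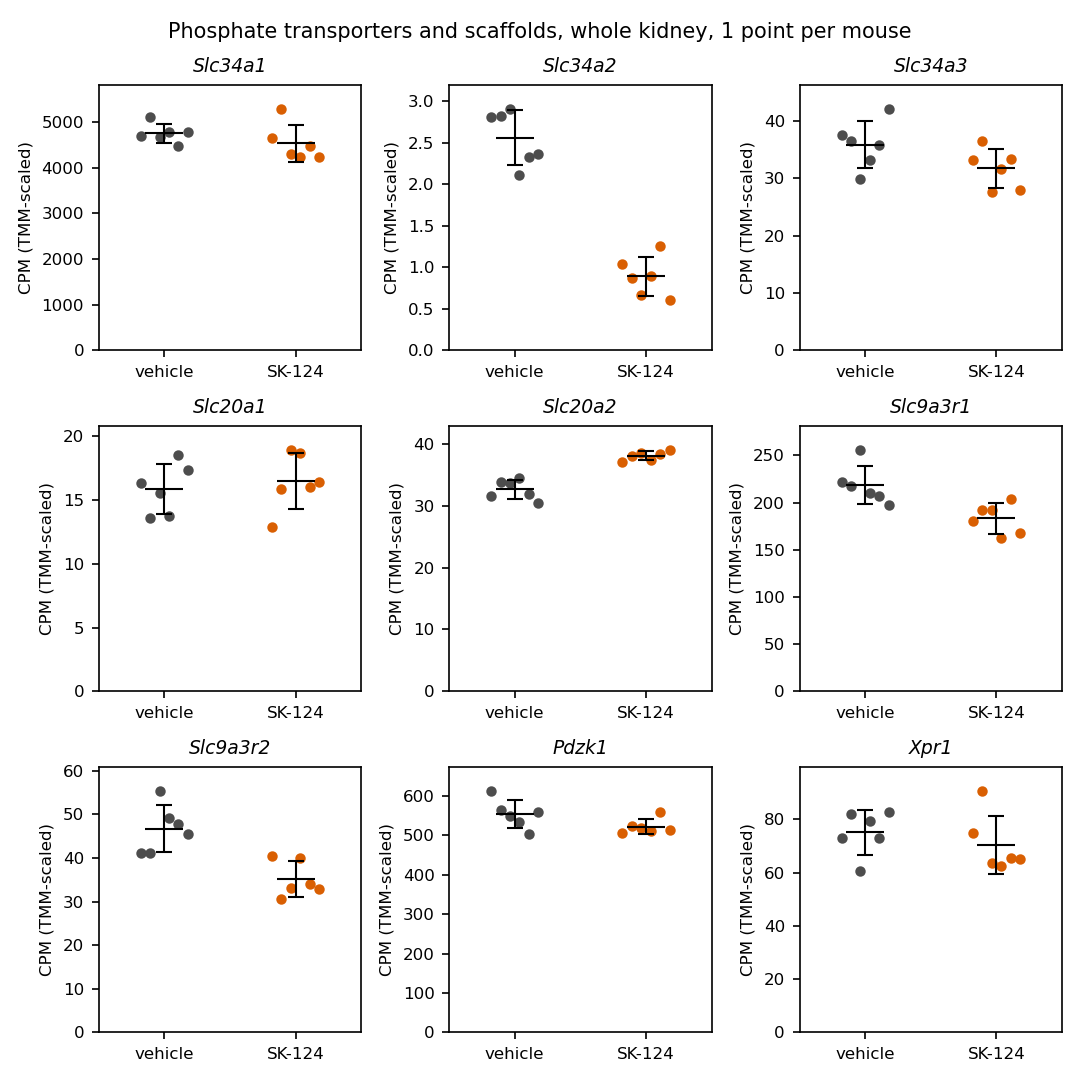
TMM-scaled CPM (vertical axes, each from 0) of the 9 phosphate genes in 6 vehicle and 6 SK-124 mice, with 1 point per mouse and bars at the mean ± SD. The groups are separate for *Slc34a2*, *Slc20a2* and *Slc9a3r2* and overlap for the other 6 genes.

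In GRCm38 (GENCODE M21) the type II cotransporter genes lie apart from each other: *Slc34a1* (ENSMUSG00000021490.11) at chr13:55398187-55415592 (+ strand), *Slc34a2* (ENSMUSG00000029188.14) at chr5:53038081-53071664 (+ strand) and *Slc34a3* (ENSMUSG00000006469.13) at chr2:25228898-25234364 (- strand). Of the type III genes, *Slc20a1* (ENSMUSG00000027397.14) lies at chr2:129198764-129211616 (+ strand) and *Slc20a2* (ENSMUSG00000037656.9) at chr8:22476788-22569612 (+ strand). The scaffold genes are *Slc9a3r1* (ENSMUSG00000020733.3) at chr11:115163341-115181181 (+ strand), *Slc9a3r2* (ENSMUSG00000002504.15) at chr17:24639286-24650327 (- strand) and *Pdzk1* (ENSMUSG00000038298.14) at chr3:96829284-96870926 (+ strand), and *Xpr1* (ENSMUSG00000026469.14) lies at chr1:155275701-155417415 (- strand). Counts cover all annotated transcripts of each gene.

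Promoters from RefSeq (GRCm38.p6, the build that the files' mm10 names) were matched by symbol for 8 of the 9 genes, without *Slc20a2*, giving 11 windows of 300 bases from 250 before to 50 after an annotated start. The windows below belong to the gene that fell most, to the scaffold gene whose groups did not overlap, and to the most abundant gene of the 9. They are written 5′ to 3′ on the strand of the gene, and capitals mark the one match to a searched motif, the TATAAA box of *Slc34a1*. The first is chr5:53049103-53049402 (+ strand), the second chr17:24650256-24650555 (- strand) and the third chr13:55399398-55399697 (+ strand). *Slc9a3r2* has another window, chr17:24644908-24645207 (- strand), which is not printed. It held 62.0% G and C and no searched motif, and coding transcripts of 1137 and 1717 bases start within it. Which of these starts the reads of *Slc9a3r2* came from was not tested.
*Slc34a2*: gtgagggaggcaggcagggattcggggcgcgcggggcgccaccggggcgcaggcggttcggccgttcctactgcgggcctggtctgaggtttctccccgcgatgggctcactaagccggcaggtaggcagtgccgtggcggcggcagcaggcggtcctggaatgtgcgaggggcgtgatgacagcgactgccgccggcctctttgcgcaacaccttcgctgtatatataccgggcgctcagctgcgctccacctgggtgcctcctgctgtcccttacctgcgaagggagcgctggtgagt
*Slc9a3r2*: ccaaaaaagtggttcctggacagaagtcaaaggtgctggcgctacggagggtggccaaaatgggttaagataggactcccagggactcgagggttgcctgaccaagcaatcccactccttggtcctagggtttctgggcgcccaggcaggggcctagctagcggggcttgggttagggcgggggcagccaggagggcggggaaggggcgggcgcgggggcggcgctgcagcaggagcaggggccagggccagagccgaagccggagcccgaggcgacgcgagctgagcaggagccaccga
*Slc34a1*: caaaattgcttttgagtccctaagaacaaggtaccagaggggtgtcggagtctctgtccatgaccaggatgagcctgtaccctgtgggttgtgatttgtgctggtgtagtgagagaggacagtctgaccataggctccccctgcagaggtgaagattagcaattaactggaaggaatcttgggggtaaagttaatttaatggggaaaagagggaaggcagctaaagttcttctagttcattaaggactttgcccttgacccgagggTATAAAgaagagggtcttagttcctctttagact

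The first 2 of these windows were rich in G and C (68.7% for *Slc34a2* and 67.3% for *Slc9a3r2*), whereas that of *Slc34a1* held 46.7%, beside a median of 52.7% over all 32851 promoters. The TATAAA of *Slc34a1* begins at position 17, counted from 1 at the RefSeq start, and 29 bases before the start of the 2433-base coding transcript in GENCODE M21. TATAAA, on either strand, was also in 1 window of *Slc20a1* and in 13.6% of all promoters. The cAMP response element TGACGTCA was in none of the 11 windows and in 1.79% of all promoters. Its shorter form TGACG, which the full element contains, was in windows of *Slc20a1*, *Pdzk1* and *Xpr1* on either strand and in 20.8% of all promoters. These matches describe letters in the windows only.

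*Slc34a1*, the NPT2A gene, dominated the cotransporters in every mouse. Its TPM, a level per transcript length, was 1965 in the lowest, 2127 in the median and 2306 in the highest vehicle mouse, which placed its mean above 99.8% of the genes tested. It made up 98.1% ± 0.224 (SD, n = 6) of the summed TPM of the 5 cotransporter genes in vehicle mice and 98.0% ± 0.161 in SK-124 mice. This share is a ratio within each library, so that the scaling between libraries does not enter it, and its ranges overlapped (97.7% to 98.4% and 97.7% to 98.2%).

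In TMM-scaled CPM, *Slc34a1* was 4476, 4727 and 5109 in the lowest, median and highest vehicle mouse and 4224, 4380 and 5288 in SK-124 mice. The SK-124 group held both the lowest and the highest mouse of the 12. The log2 fold change was -0.07 (SE 0.07, 95% interval -0.22 to 0.08; edgeR's quasi-likelihood test, adjusted p = 0.514), and the exact two-sided permutation test over mice gave p = 0.225. In percent, that interval runs from -14.2% to 5.94%. On other scales the gene was called lower: with library totals at a log2 fold change of -0.19 (adjusted p = 0.0377) and with limma on log2(TPM + 0.1) at -0.26 (adjusted p = 0.0388). In TPM the SK-124 mice ran from 1592 to 1961 and so lay just below the vehicle mice. SK-124 mice 1 to 3 alone gave 0.00 and mice 4 to 6 alone gave -0.13, neither of which was called.

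*Slc34a3*, the NPT2C gene and the other brush-border form, was far less abundant, at 26.3 ± 6.09 TPM in vehicle mice and 20.4 ± 3.29 TPM in SK-124 mice (mean ± SD, n = 6 each). Its CPM was 29.8, 36.2 and 42.1 in the lowest, median and highest vehicle mouse and 27.6, 32.4 and 36.5 in SK-124 mice. The groups overlapped, with 2 SK-124 mice below every vehicle mouse. The log2 fold change was -0.18 (SE 0.08, 95% interval -0.36 to 0.01; edgeR's quasi-likelihood test, adjusted p = 0.140; exact permutation p = 0.0887). The gene crossed the threshold without vehicle mouse 3, its lowest vehicle mouse, at -0.23 (adjusted p = 0.0376), and with library totals at -0.30 (adjusted p = 0.0286). It made up 1.20% ± 0.210 of the summed cotransporter TPM in vehicle mice and 1.12% ± 0.126 in SK-124 mice. GENCODE M21 has 7 transcripts of *Slc34a3*, of which 1, of 2183 bases, codes for protein. The estimated length of the gene was only 1488 ± 132 bases in vehicle mice. Its TPM and share therefore also count shorter transcripts that do not code, and are not the level of NPT2C mRNA alone.

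*Slc34a2*, the NPT2B gene, showed the largest change of the 9, from a very low level. The 6 vehicle libraries held 57, 57, 57, 42, 49 and 50 expected counts of it in mice 1 to 6, and the 6 SK-124 libraries held 18, 15, 12, 18, 25 and 12. Every SK-124 mouse lay below every vehicle mouse. In CPM the gene went from 2.56 ± 0.330 to 0.891 ± 0.237 (mean ± SD, n = 6 each), and it fell by 1.51 on the log2 scale (SE 0.17, 95% interval -1.90 to -1.13; edgeR's quasi-likelihood test, adjusted p = 4.67e-06). The exact two-sided permutation p was 0.00216, the smallest that 6 mice against 6 can give. The decrease held in all 26 alternative settings, at an adjusted p of at most 0.000445. The log2 fold change was -1.56 with SK-124 mice 1 to 3 alone and -1.47 with mice 4 to 6 alone, each against the same 6 vehicle mice.

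The level of *Slc34a2*, 0.598 ± 0.0752 TPM in vehicle mice, exceeded that of 10.4% of the genes tested and amounted to 0.0275% ± 0.00331 of the summed cotransporter TPM, against 0.0103% ± 0.00251 in SK-124 mice. The ranges of these shares did not overlap (0.0230% to 0.0311% and 0.00801% to 0.0145%). Because *Slc34a2* is abundant in type II cells of the lung, markers of those cells were read as a check on other tissue: *Sftpc* and *Sftpa1* had no count in any mouse, and *Sftpb* and *Lamp3* had at most 1 count per mouse. The antisense gene *Gm17182*, which overlaps *Slc34a2*, had 0 to 3 counts per mouse. Nearly all reads were assigned by RSEM, the authors' counting program, to the 4176-base coding transcript that starts at the printed promoter, since the estimated length of the gene was 4176 bases in 9 of 12 mice.

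Of the type III cotransporters, *Slc20a2* rose and *Slc20a1* was not called. *Slc20a2*, the PIT2 gene, was 30.4, 32.8 and 34.5 CPM in the lowest, median and highest vehicle mouse and 37.0, 38.2 and 39.0 CPM in SK-124 mice. The groups did not overlap, and the SK-124 mice were closely spaced. The log2 fold change was 0.22 (SE 0.05, 95% interval 0.11 to 0.33; edgeR's quasi-likelihood test, adjusted p = 0.00272; exact permutation p = 0.00216), an increase of 16.6%.

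This increase rested on the scaling. The unscaled expected counts overlapped, at 640 to 684 in vehicle mice and 639 to 770 in SK-124 mice. The log2 fold change was 0.11 with library totals (adjusted p = 0.244) and 0.09 with limma on log2(TPM + 0.1) (adjusted p = 0.527), and neither was called, although no setting turned its direction. As a share of the summed cotransporter TPM within each mouse, *Slc20a2* was 0.414% ± 0.0257 in vehicle mice and 0.529% ± 0.0501 in SK-124 mice, with ranges that overlapped (0.381% to 0.454% and 0.436% to 0.572%). *Smim19*, which overlaps *Slc20a2* on the opposite strand, had 219 to 263 counts in vehicle mice and 166 to 237 in SK-124 mice. *Gm17491*, which overlaps it on the same strand, had 55 to 72 counts in vehicle mice and 52 to 82 in SK-124 mice. Whether reads were counted by strand is not given in the sources used here.

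*Slc20a1*, the PIT1 gene, was 13.6, 15.9 and 18.5 CPM in the lowest, median and highest vehicle mouse and 12.9, 16.2 and 18.9 in SK-124 mice. The groups overlapped over most of their range. Its log2 fold change was 0.06 (SE 0.10, 95% interval -0.16 to 0.27; edgeR's quasi-likelihood test, adjusted p = 0.716; exact permutation p = 0.623). It made up 0.308% ± 0.0698 and 0.360% ± 0.0629 of the summed cotransporter TPM in vehicle and SK-124 mice. GENCODE M21 has 8 transcripts of *Slc20a1*, of which 3 code for protein. The estimated length of the gene was 2423 ± 173 bases in vehicle mice, below its coding transcripts of 3316 and 3219 bases. Its TPM and share therefore also count shorter transcripts, and are not the level of full-length PIT1 mRNA alone.

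**Figure D2:**
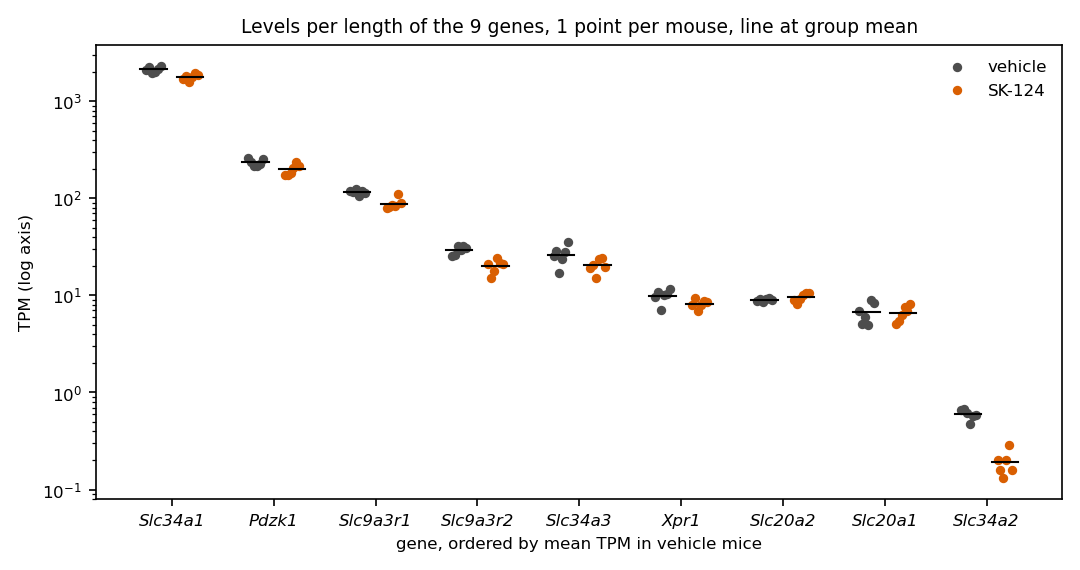
TPM (logarithmic axis) of the 9 genes in 6 vehicle and 6 SK-124 mice, ordered by the vehicle mean, with 1 point per mouse and a line at each group mean. *Slc34a1* stands between 1592 and 2306 TPM, the scaffold genes *Pdzk1* and *Slc9a3r1* follow, and *Slc34a2* is the only one of the 9 below 1 TPM.

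Per length, the order of the 9 genes in vehicle mice was *Slc34a1*, *Pdzk1* (235 ± 20.02 TPM), *Slc9a3r1* (117 ± 6.51), *Slc9a3r2* (29.3 ± 3.14), *Slc34a3* (26.3 ± 6.09), *Xpr1* (9.95 ± 1.54), *Slc20a2* (8.99 ± 0.336), *Slc20a1* (6.71 ± 1.66) and *Slc34a2* (mean ± SD in TPM, n = 6). *Slc34a1* exceeded *Pdzk1* 9.06-fold, and *Pdzk1* exceeded *Slc9a3r1* 2.02-fold, in means over vehicle mice that did not overlap. Neighbours overlapped in vehicle mice for *Slc9a3r2* with *Slc34a3*, *Xpr1* with *Slc20a2*, and *Slc20a2* with *Slc20a1*. Among all 12 mice, *Slc9a3r2* was above *Slc34a3* in 8 and *Xpr1* above *Slc20a2* in 6, whereas *Slc20a2* was above *Slc20a1* in 12.

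Both NHERF genes fell, and *Pdzk1* was not called. *Slc9a3r2*, the NHERF2 gene, was 41.1, 46.7 and 55.5 CPM in the lowest, median and highest vehicle mouse and 30.6, 33.6 and 40.4 CPM in SK-124 mice. No SK-124 mouse reached the lowest vehicle mouse. The gene fell by 24.7% (log2 fold change -0.41, SE 0.08, 95% interval -0.60 to -0.22; edgeR's quasi-likelihood test, adjusted p = 0.00175; exact permutation p = 0.00216). The call held in all 26 alternative settings, at -0.55 to -0.35 and an adjusted p of at most 0.0191. The smallest decrease, -0.35, came without vehicle mouse 3, the highest vehicle mouse for this gene.

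*Slc9a3r1*, the NHERF1 gene, was 198, 214 and 256 CPM in the lowest, median and highest vehicle mouse and 163, 186 and 204 CPM in SK-124 mice. Of the 6 SK-124 mice, 5 lay below every vehicle mouse, and 1 lay within their range. It fell by 16.1% (log2 fold change -0.25, SE 0.07, 95% interval -0.41 to -0.10; edgeR's quasi-likelihood test, adjusted p = 0.0125; exact permutation p = 0.00433). Without vehicle mouse 3, its highest vehicle mouse, the log2 fold change was -0.20 (edgeR, adjusted p = 0.0179). With SK-124 mice 1 to 3 as the only treated mice, the log2 fold change was -0.21 and the call was lost (edgeR, adjusted p = 0.0915). With mice 4 to 6 it was -0.29 (edgeR, adjusted p = 0.0433). Both fits had fewer treated mice. GENCODE M21 has 1 transcript of this gene, 1925 bases long, so that its TPM carries no shift between transcripts.

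*Pdzk1*, the most abundant of the 3 scaffold genes, was 504, 554 and 614 CPM in the lowest, median and highest vehicle mouse and 506, 516 and 558 in SK-124 mice. Every SK-124 mouse lay within the vehicle range. The log2 fold change was -0.09 (SE 0.05, 95% interval -0.21 to 0.03; edgeR's quasi-likelihood test, adjusted p = 0.266; exact permutation p = 0.0736). It was called with library totals at -0.20 (adjusted p = 0.0437), while limma on log2(TPM + 0.1) gave -0.25 without a call. *Gpr89*, which overlaps it, had 233 to 300 counts per mouse.

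*Xpr1*, the exporter, was 60.5, 76.3 and 82.7 CPM in the lowest, median and highest vehicle mouse and 62.3, 65.3 and 90.8 CPM in SK-124 mice. The groups overlapped, and the highest mouse of the 12 was an SK-124 mouse. Its log2 fold change was -0.09 (SE 0.09, 95% interval -0.30 to 0.12; edgeR's quasi-likelihood test, adjusted p = 0.518; exact permutation p = 0.379). It was not called in any of the 26 alternative settings.

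**Figure D3:**
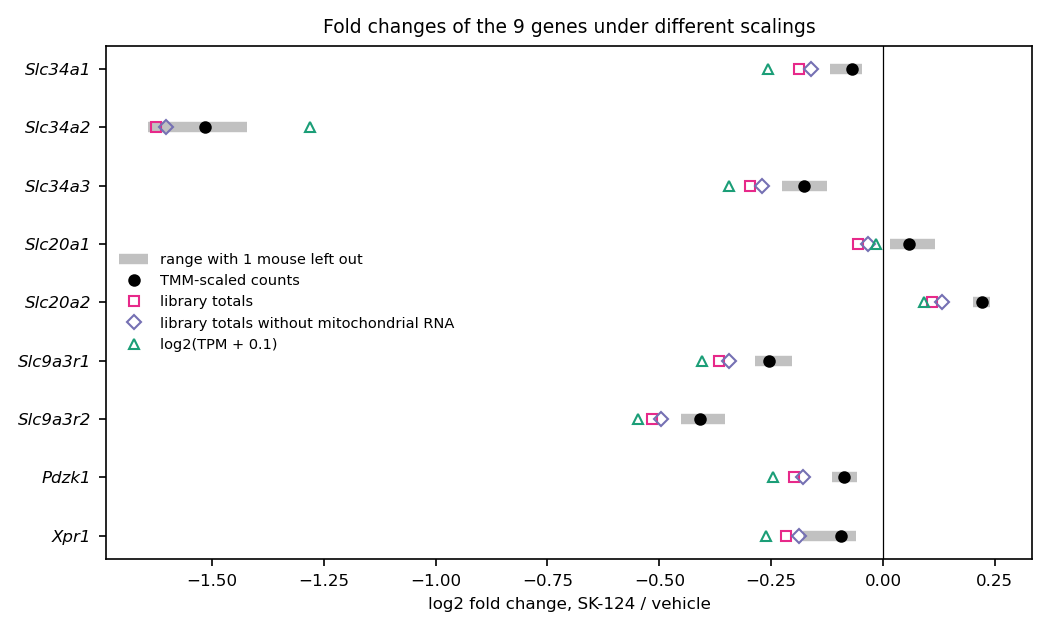
Log2 fold change (SK-124 over vehicle, horizontal axis) of the 9 genes with TMM-scaled counts (filled circles), with library totals (squares), with library totals after mitochondrial RNA was set aside (diamonds) and with log2(TPM + 0.1) (triangles); grey bars span the values with 1 mouse left out. The 3 other scalings lie left of TMM for 8 genes; for *Slc34a2*, log2(TPM + 0.1) lies right of it, where the added 0.1 is large beside its TPM.

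The mix of transcripts of these genes was read from the RSEM gene length, a mean of transcript lengths weighted by abundance. It varied between mice for 8 of the 9 genes, and limma called none of them, beside 5 of 11999 genes tested (0.0417%). The nearest was *Slc34a1*, whose length was 2256 ± 22.9 bases in vehicle mice and 2301 ± 17.5 bases in SK-124 mice (mean ± SD, n = 6 each). The ranges, 2218 to 2289 and 2279 to 2329 bases, overlapped, and the 2.04% difference had an adjusted p of 0.563 by limma. *Slc34a3* varied more between mice, from 1359 to 1707 bases, than its groups differed (1488 ± 132 and 1501 ± 68.9 bases).

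The receptors that carry hormone signals to these transporters were read as a list of 6 genes, of which 4 were lower, 0 higher and 2 not called, beside 13.5% lower and 10.8% higher over all genes tested, with a median log2 fold change of -0.23 beside -0.005 for all genes. *Fgfr3*, which encodes a receptor for fibroblast growth factors, went from 25.2 to 32.4 CPM in vehicle mice to 12.5 to 16.0 CPM in SK-124 mice. The groups stood well apart, and *Fgfr3* fell by 47.6% (log2 fold change -0.93, SE 0.07; edgeR's quasi-likelihood test, adjusted p = 6.91e-08). *Vdr*, the vitamin D receptor gene, was 267 to 351 CPM and 182 to 241 CPM, again without overlap, and fell by 0.50 (SE 0.08, adjusted p = 0.000169 by the same edgeR test).

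*Fgfr4* fell by 0.29 (adjusted p = 0.00558) and *Fgfr1*, whose product binds FGF23 together with Klotho, fell by 0.16 (adjusted p = 0.0336) in the same edgeR test. The *Fgfr1* call was lost in 9 of 26 alternative settings and the *Fgfr4* call in 1, with SK-124 mice 4 to 6 as the only treated mice (adjusted p = 0.0531). *Pth1r*, the PTH receptor gene, was 321 ± 23.9 and 295 ± 20.3 CPM, with a log2 fold change of -0.12 (95% interval -0.26 to 0.01; edgeR, adjusted p = 0.168), and it was called with library totals at -0.23 (adjusted p = 0.0189). *Kl*, which encodes Klotho, was 550 ± 64.7 and 502 ± 68.1 CPM, with a log2 fold change of -0.13 (95% interval -0.34 to 0.07; edgeR, adjusted p = 0.337).

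Of the partners of XPR1 and the enzymes that make inositol pyrophosphates, the small molecules that XPR1 senses through its SPX domain, 5 of 6 genes were tested, with 2 higher and 0 lower, beside 10.8% and 13.5% of all genes tested. *Ip6k2*, an inositol hexakisphosphate kinase gene, was 17.2 to 20.7 CPM in vehicle mice and 44.0 to 60.1 CPM in SK-124 mice. The lowest SK-124 mouse was far above the highest vehicle mouse, and the gene rose by 1.45 on the log2 scale, or 2.74-fold (SE 0.07; edgeR's quasi-likelihood test, adjusted p = 2.59e-10). *Ip6k1* rose by 0.29 (SE 0.06; edgeR, adjusted p = 0.002) in CPM, but in log2(TPM + 0.1) its log2 fold change was -0.026 (adjusted p = 0.933). Vehicle mouse 6 held 17.6 TPM of *Ip6k1* at an estimated length of 2180 bases, against 6.84 to 10.5 TPM in the other vehicle mice. *Kidins220*, which encodes a partner of XPR1, had a log2 fold change of -0.19 (edgeR, adjusted p = 0.0665).

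**Figure D4:**
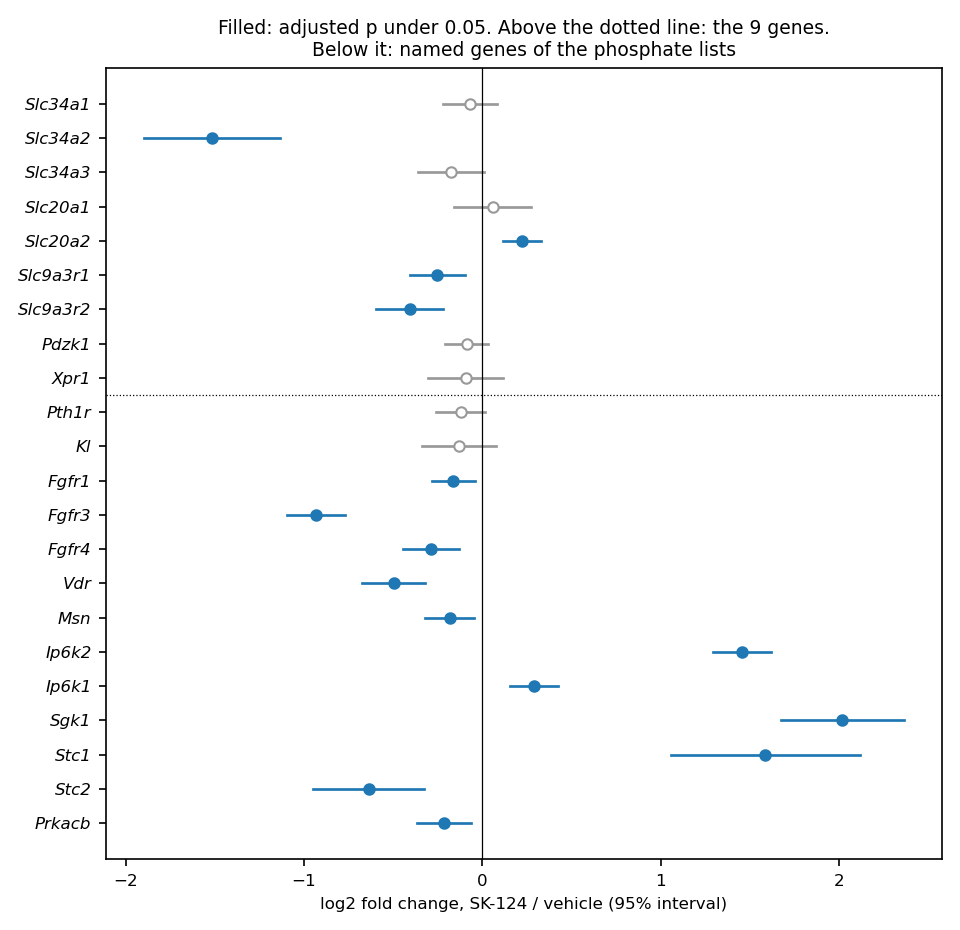
Log2 fold change (SK-124 over vehicle, horizontal axis) for the 9 phosphate genes (above the dotted line) and the named genes of the phosphate lists (below it). Bars are 95% intervals computed from the SE of edgeR's test, and points are filled where its adjusted p was under 0.05. *Slc34a2* lies at -1.51, whereas *Ip6k2*, *Stc1* and *Sgk1* lie at 1.45, 1.59 and 2.02.

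Genes for kinases downstream of PTH and FGF23 and for hormones that act on phosphate were read in a list of 9 genes. This list also held *Alpl* and *Enpp1*, which encode other enzymes, and neither was called. Of the 9, 2 were higher and 3 lower, beside 10.8% and 13.5% of all genes tested. *Sgk1*, a kinase gene, was 14.7 to 31.3 CPM in vehicle mice and 81.2 to 116 CPM in SK-124 mice and rose 4.05-fold (edgeR's quasi-likelihood test, adjusted p = 4.86e-08). *Stc1*, which encodes stanniocalcin 1, was 1.78 to 2.99 CPM and 4.34 to 12.1 CPM and rose 3.001-fold (edgeR, adjusted p = 8.78e-05). Neither gene's groups overlapped. *Stc2*, its paralog, fell by 0.64 on the log2 scale (edgeR, adjusted p = 0.00261) with groups that overlapped, and the catalytic subunit genes of protein kinase A, *Prkacb* and *Prkaca*, each fell by 0.21 (edgeR, adjusted p = 0.0277 and 0.0238). The *Prkacb* call was lost in 7 of 26 alternative settings; *Prkaca* is named after its value was seen, as the remaining call of this list.

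The other lists held 1 call among them, beside the 24.4% over all genes tested. Of 10 genes for apical scaffold and cytoskeletal partners, 1 was called: *Msn*, which encodes moesin, fell by 0.18 (edgeR, adjusted p = 0.0387), a call lost in 12 of 26 alternative settings. None of 6 apical endocytosis genes was called, with log2 fold changes of -0.11 to 0.02. None of the 4 tested genes for SLC17 family transporters and the mitochondrial phosphate carrier was called, although each had a log2 fold change above 0, of 0.14 to 0.48, and 3 of the 4 had an unadjusted edgeR p under 0.05.

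Markers of the cells that carry the brush border moved little in their median. Of 9 proximal tubule markers, 1 was higher and 0 lower, with a median log2 fold change of -0.02, and their summed level was 1854 to 2240 TPM in vehicle mice and 1761 to 2161 TPM in SK-124 mice. The called one was *Slc27a2*, a fatty acid transport gene, at 0.18 (edgeR, adjusted p = 0.0164). It was the highest of the list, and *Gatm* was the lowest at -0.25 (edgeR, adjusted p = 0.0801). Single markers of some other kidney cells moved more: *Pdgfrb* (stroma) fell by 0.93 and *Kdr* (endothelium) by 0.85, each as the 1 called gene of 4 in its list. In the same lists *Dcn* (stroma) was at -0.04 and *Pecam1* (endothelium) at 0.07. The list of collecting duct principal cells had 1 of 4 higher and 1 lower, with *Aqp2* at 0.75 and *Hsd11b2* at -0.35. The median log2 fold changes of the stromal, endothelial and collecting duct lists were -0.44, -0.24 and 0.12. Those of podocyte, intercalated cell, immune and distal convoluted tubule lists were -0.01, 0.003, -0.03 and 0.04, and those of thick ascending limb and blood were 0.18 and -0.21. The summed stromal markers were 26.9 to 37.3 TPM in vehicle mice and 16.1 to 36.2 TPM in SK-124 mice, and the endothelial ones 60.8 to 83.1 and 40.9 to 76.3 TPM. Of the other lists of 4 markers, those of thick ascending limb and podocyte had 1 gene higher and 0 lower, that of intercalated cells had 1 higher and 1 lower, and those of distal convoluted tubule, immune cells and blood had none called; of the adrenal cortex list only *Star* was tested, and it was not called. The part of stromal and endothelial markers in the decreases of *Slc9a3r2*, *Slc34a2* and *Fgfr3* was not tested.

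The genes that varied most like each of the 9 between mice were named by Pearson's r of log2(CPM + 0.5) over 12 mice after each group's mean was subtracted, over the 7872 genes whose mean reached 10 CPM. The r reached by the highest 1% of these genes ran from 0.635 for *Slc20a2* to 0.891 for *Xpr1*, with 0.839 for *Slc34a3* and 0.782 for *Slc34a1*, and the values are a description. *Slc34a3* was most like *Slc2a2* (r = 0.94), *Slc7a8* (r = 0.93) and *Lrrc8d* (r = 0.92). Of these, *Slc2a2* encodes a glucose transporter and *Slc7a8* an amino acid transporter of the proximal tubule. By Spearman's rho, the same genes ranked only 25.5, 16.5 and 142.5 for *Slc34a3*. *Slc34a1* was most like *Zhx3* (r = 0.94), *Nek4* (r = 0.93) and *Rab1a* (r = 0.91), *Slc34a2* like *Plau* (r = 0.89), *Mdn1* (r = 0.89) and *St6galnac2* (r = 0.87), and *Xpr1* like *Birc6* (r = 0.97), *Caprin1* (r = 0.96) and *Lmbrd2* (r = 0.96). In the same order, their ranks by rho were 1.5, 24 and 58.5 for *Slc34a1*, 1, 2 and 5.5 for *Slc34a2*, and 15.5, 27.5 and 8 for *Xpr1*.

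For the type III cotransporters, *Slc20a1* was most like *Herpud1*, *Saraf* and *Slc25a25* (r = 0.86 to 0.89) and *Slc20a2* like *Ubtd1*, *Gga1* and *Ube2q1* (r = 0.87 to 0.89). Among the scaffolds, *Slc9a3r1* was most like *Os9*, *Emc10* and *Ap1s1* (r = 0.93 to 0.95), *Slc9a3r2* like *Cp*, *Fxyd5* and *Rab25* (r = 0.86 to 0.89) and *Pdzk1* like *Slc6a13*, *Usp5* and *Vcp* (r = 0.88 to 0.89). Of the genes like these scaffolds and type III cotransporters, *Emc10*, *Saraf* and *Slc25a25* stood lowest by rho, at ranks 22.5, 18 and 11.5. Between the 9 themselves, the highest of the 36 pair values was 0.82 for *Slc34a1* with *Xpr1* and the lowest -0.67 for *Slc34a3* with *Slc20a2*; *Slc34a1* with *Slc34a3* gave 0.55. These points share their libraries and scaling factors.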

How the data were processed

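RNA-Seq libraries were prepared from whole kidneys of 12 mice (6 vehicle, 6 SK-124) and sequenced on a BGISEQ-500 instrument. The submitters' processing notes name FastQC, STAR 2.7.2b, RSEM 1.3.0, DESeq2 and build mm10; the annotation release and strand setting are not given in the sources used here. The authors deposited 1 RSEM table per mouse, with expected counts (estimated reads per gene, before scaling), TPM and FPKM (both per effective length) and gene lengths in bases. GENCODE M21 (GRCm38) held 54349 of the 55401 identifiers in the same version, among them all 9 members. Rows without a gene name took under 0.00221% of counts.

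Expected counts were rounded and tested with edgeR 4.0.16 (R 4.3.3): filterByExpr, TMM, quasi-likelihood test and Benjamini-Hochberg adjustment over 14159 genes; fold changes are SK-124 over vehicle. Single genes also had an exact two-sided permutation test over mice on log2(CPM + 0.5). Lengths were tested with limma 3.58.1, whose log2 values were computed here from the deposited lengths. Depth was 19244227 to 19771802 expected counts per mouse, so genes of few counts, such as *Slc34a2*, are known less precisely. No pair of libraries within a group agreed to within sampling noise. Data were also simulated on the 14159 genes, with 200 of them changed, a spread set by each gene's level alone and no difference in library composition. There edgeR recovered 68% of genes changed by 0.5 and 93% of those changed by 1 on the log2 scale, and 4.73% of its calls were false. In the real data 24.4% of genes were called and composition differed between libraries, so these rates need not hold for them. Alternatives were DESeq2 1.42.0, other scalings, filters and units, each mouse left out, SK-124 mice 1 to 3 or 4 to 6 alone, and a block for replicate number. That split of the SK-124 mice matches the library composition seen in these data and is given by no label. Both parts were compared with the same 6 vehicle mice, so their results are not independent of each other. The 9 genes were chosen by name; they, the lists and the tests were chosen with earlier results of these data known. Named genes were the 9 members, all hormone receptors, up to 4 called genes per list with the largest change, and the 3 genes most like each member. P-values set the difference between groups against the spread between these mice.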

Additional observations from a re-analysis of the deposited data

Results flagged for a closer look

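Of 60 values tested, 5 had 1 mouse farther from the rest of its group than Dixon's 95% critical value for 6 samples allows; chance flags about 1 in 20, or 3 of 60. For *Pdzk1*, SK-124 mouse 5 stood high at 558 CPM, where the other SK-124 mice held 506 to 524. For *Fgfr4*, vehicle mouse 3 stood high at 31.9 CPM. The other 3 were estimated gene lengths. Vehicle mouse 2 (4033 bases) and SK-124 mouse 6 (3678 bases) stood low for *Slc34a2*, each against mice at 4176 bases or within 1 base of it and with 57 and 12 counts behind them. Vehicle mouse 4 (3451 bases) stood low for *Slc20a2*.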

How the results depend on the processing

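The count of genes called was 3453 and ranged from 2960 to 3942 with 1 mouse left out; with SK-124 mice 1 to 3 as the only treated mice it was 2298, and with mice 4 to 6 it was 2446, in both cases with fewer mice. DESeq2 called 3556 genes. The share of calls that were higher was 44.5%, but 20.3% with library totals, 19.01% and 19.04% with limma on log2(TPM + 1) and log2(TPM + 0.1), and 23.5% with library totals after mitochondrial genes and their 3 abundant nuclear copies were set aside, an alternative chosen after seeing the data. Of the 9 members, 4 were called, 4 to 5 with 1 mouse left out, 6 with library totals and 3 with SK-124 mice 1 to 3. *Slc34a2* and *Slc9a3r2* were called in 26 of 26 alternatives, *Slc9a3r1* in 25 and *Slc20a2* in 22. *Ip6k1* turned from 0.29 to -0.027 with log2(TPM + 1) (adjusted p = 0.926) and to -0.026 with log2(TPM + 0.1) (adjusted p = 0.933). No member length was called in any alternative. With Spearman's rho, 12 of the 27 genes most like a member remained among the 3 highest.

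Replicate numbers did not pair the mice: deviations of same-numbered mice correlated above 0.1 in 2 of 6 pairs, and 2 of 6 vehicle mice matched their own number best. With replicate number as a replicate block, 3466 genes were called, 3229 of them also called without it, and 4 members, with a member length count of 0.

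Counts of *Slc34a2* (12 to 57 per mouse) limit the precision of its level; other members had at least 223 counts.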
